A study of Mus musculus with 6 samples.

Results

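The Cyp2b and Cyp2a cytochrome P450 genes Cyp2b9, Cyp2b10, Cyp2b13, Cyp2a4, Cyp2a5 and Cyp2a12 were measured in whole liver by 7 of the 45037 non-control probe sets of an Affymetrix mouse array. A probe set was taken when its annotated gene symbol named one of these 6 genes. Cyp2b10 had 3 probe sets, Cyp2b9, Cyp2b13 and Cyp2a12 had 1 each, and 1 probe set, 1422230_s_at, names both Cyp2a5 and Cyp2a4, so these 2 genes cannot be told apart here. The genes were picked from earlier results of the same comparison, so every difference between LIGHT Tg and WT given for them is a description without a test.

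The samples were 3 livers labelled LIGHT Tg (Tg77, Tg34 and Tg35 by title) and 3 wild-type livers labelled B6 (WT78, WT30 and WT31). Tnfsf14 encodes LIGHT, a cytokine related to tumour necrosis factor. All came from mice between 4 and 8 weeks old that had eaten the high-fat diet TD88137 for 2 weeks, so no liver on standard chow was compared. The labels used here name no promoter for the transgene and no sex. The free-text descriptions of the 3 LIGHT Tg samples read as those of the WT samples do and name wild-type B6 mice, against their titles, which set the groups here. Whether the LIGHT Tg mice are on B6 is therefore not settled by the labels, and any difference in genetic background cannot be told apart from the transgene. The labels do not say whether each sample is a separate animal.

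Members of the cytochrome P450 family 2 are haem enzymes of the hepatocyte's endoplasmic reticulum that oxidise drugs, steroids and fatty acids with electrons from the reductase Por. In mouse liver Cyp2b10 is the best known target of the nuclear receptor CAR (Nr1i3), which phenobarbital-like inducers activate. Cyp2b9, Cyp2b13 and Cyp2a4 are known as genes with higher expression in female than in male liver, a pattern set by the timing of growth hormone release. Cyp2a5 hydroxylates coumarin and nicotine, Cyp2a4 hydroxylates testosterone, and Cyp2a12 hydroxylates steroids and bile acids.

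The 6 genes lie in 1 cluster of family 2 genes on mouse chromosome 7, in the order Cyp2b10, Cyp2b13, Cyp2b9, Cyp2a4, Cyp2a5 and Cyp2a12 with other genes between some of them (RefSeq, GRCm38.p6). The 250 bases before the transcript start are shown for 5 of them because the genes of each near-identical pair share almost the same upstream sequence. All are on the plus strand of GRCm38.p6, taken from RefSeq, which had a window for all 6 genes. The windows are chr7:26173159-26173408 for Cyp2b9, chr7:26061245-26061494 for Cyp2b13 and chr7:25897408-25897657 for Cyp2b10. Capitals mark, in Cyp2b9 and Cyp2b13, the bases that differ between them, and in Cyp2b10 the bases that differ from Cyp2b9 or have no partner inside the aligned stretch. Bases outside that stretch are in lower case.

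Cyp2b9: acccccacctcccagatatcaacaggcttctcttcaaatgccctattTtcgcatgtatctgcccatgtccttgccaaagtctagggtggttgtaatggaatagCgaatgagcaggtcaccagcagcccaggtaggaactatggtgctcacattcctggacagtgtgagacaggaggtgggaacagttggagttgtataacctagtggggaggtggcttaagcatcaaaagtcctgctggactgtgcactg

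Cyp2b13: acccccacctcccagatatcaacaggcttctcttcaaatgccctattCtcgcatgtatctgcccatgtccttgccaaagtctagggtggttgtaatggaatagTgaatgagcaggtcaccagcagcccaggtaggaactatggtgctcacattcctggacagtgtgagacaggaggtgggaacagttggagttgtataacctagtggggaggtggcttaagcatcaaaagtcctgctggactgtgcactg

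Cyp2b10: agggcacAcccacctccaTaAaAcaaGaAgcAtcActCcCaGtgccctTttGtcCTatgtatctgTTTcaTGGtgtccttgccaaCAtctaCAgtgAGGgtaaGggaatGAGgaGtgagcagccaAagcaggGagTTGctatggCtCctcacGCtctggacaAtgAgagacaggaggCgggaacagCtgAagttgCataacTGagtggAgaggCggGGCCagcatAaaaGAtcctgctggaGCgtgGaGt

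Over 250 aligned bases Cyp2b9 and Cyp2b13 differed at 2, T48C and C104T, counted from 1 at the 5′ end of the Cyp2b9 window, which is 99.2% identity. Cyp2b10 was 75.8% identical to Cyp2b9 over 240 aligned bases. The Cyp2a windows are chr7:26306942-26307191 for Cyp2a4 and chr7:26835089-26835338 for Cyp2a5, with capitals at the bases that differ between them.

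Cyp2a4: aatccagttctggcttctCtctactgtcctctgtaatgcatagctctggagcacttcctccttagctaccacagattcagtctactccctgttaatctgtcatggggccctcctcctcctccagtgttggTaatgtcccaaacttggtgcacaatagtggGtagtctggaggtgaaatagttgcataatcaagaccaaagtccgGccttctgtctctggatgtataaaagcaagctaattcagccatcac

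Cyp2a5: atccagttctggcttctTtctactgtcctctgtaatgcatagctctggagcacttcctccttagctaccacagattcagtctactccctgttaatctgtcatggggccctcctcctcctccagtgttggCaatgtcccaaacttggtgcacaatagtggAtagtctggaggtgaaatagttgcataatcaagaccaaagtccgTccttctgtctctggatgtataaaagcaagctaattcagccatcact

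These differed at 4 of 249 aligned bases (98.4% identity), C19T, T131C, G161A and G205T counted from the 5′ end of the Cyp2a4 window. Pairs of 1 Cyp2b and 1 Cyp2a gene reached between 54.2% and 65.4% in the same gapped alignment. The hexamer AGGTCA, read on both strands as a half-site of nuclear receptors, occurred once in the windows of Cyp2b9 and Cyp2b13 and not in the other 4, against 14.02% of 32851 RefSeq windows of this length. CAAAGTCC, part of the site of the hepatocyte factor HNF4, occurred once in Cyp2a4 and Cyp2a5 and not in the other 4, against 1.20% of windows on both strands. TTGCNNAA, a C/EBP-like motif, occurred once in each window but that of Cyp2a12 (9.56% of windows, both strands), and the STAT palindrome TTCNNNGAA in none of the 6 (7.02%). TATAAA on the gene's strand occurred once in Cyp2a4, Cyp2a5 and Cyp2a12 (7.59%). None of these matches overlapped another.

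The 6 arrays fall into 2 sets by title, 77 and 78 (Tg77 and WT78) and 30 to 35 (the other 4), and each set holds both genotypes. Across all probe sets the arrays had median signals of 175.1 to 183.1. Xist, which silences an X chromosome in females, had signals of 5.4 on Tg77, 6673 on Tg34 and 6969 on Tg35, against 7.1 on WT78, 7503 on WT30 and 8406 on WT31 at 1 of its probe sets, and the Y-linked Eif2s3y had 1272 on Tg77 and at most 2.82 on Tg34 and Tg35, against 1037 on WT78 and at most 2.4 on WT30 and WT31. The arrays titled 77 and 78 therefore carry a male and the other 4 a female pattern of sex chromosome transcripts. Each comparison is given over the 6 arrays and within the sets, and in the male-pattern set each genotype has 1 array and no replicate. The brighter Tnfsf14 probe set had signals of 55.7, 19.3 and 26.7 in Tg77, Tg34 and Tg35, against 7.7, 11.9 and 7.43 in WT78, WT30 and WT31. The dimmer Tnfsf14 probe set had 2.3, 3.1 and 5.6 in LIGHT Tg, against 4.25, 3.75 and 7.83 in WT, in the same order of arrays. Their log2 differences had opposite signs, 1.8 ± 0.594 and -0.547 ± 0.543. All these signals lie below 167.4, the level of the filter on dim signals. Whether either probe set detects the transgene was not tested. The hepatocyte marker list was at the top of the range on each array, with all 11 matched genes at or above the 99.6th percentile.

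Cyp2b9 was low in all 3 LIGHT Tg livers and high in only 2 of the 3 WT livers. Its MAS5 signal, the authors' linear intensity per probe set, was 246.4 in Tg77, 675.5 in Tg34 and 311.6 in Tg35, against 171.8 in WT78, 10880 in WT30 and 8656 in WT31. The 2 WT livers with the female pattern stood apart, and the other 4 livers, male-pattern WT78 among them, lay between 171.8 and 675.5. In the order of levels WT30 and WT31 came first, Tg34 and Tg35 next, then Tg77 and WT78, and the last 2 are single arrays with no spread of their own. Within the arrays titled 30 to 35 the log2 difference, LIGHT Tg minus WT, was -4.40 ± 0.354 (SE, n = 2 per group), a 21.2-fold lower signal, and between Tg77 and WT78 it was 0.52. Over the 6 arrays it was -2.76 ± 1.48 (n = 3 per group), and the groups overlapped through WT78.

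Cyp2b13, the near-identical neighbour of Cyp2b9, followed the same order. Its signal was 99.6 in Tg77, 225.0 in Tg34 and 143.8 in Tg35, against 92.1 in WT78, 4819 in WT30 and 2650 in WT31. Again both female-pattern WT livers lay far above the other 4. The log2 difference was -4.31 ± 0.338 within the arrays titled 30 to 35, 19.9-fold lower in LIGHT Tg, 0.11 between Tg77 and WT78, and -2.84 ± 1.35 over the 6 arrays. Among the 22519 probe sets tested, the differences within the arrays titled 30 to 35 ranked 7th (Cyp2b9) and 8th (Cyp2b13) from the lowest. Across the 6 arrays the log2 signals of Cyp2b9 and Cyp2b13 had a Pearson r of 0.995 (n = 6). Transcripts of these paralogs are close in sequence, and whether each probe set reads 1 of them alone was not tested. The plot of signals by array shows both genes with 2 high points in WT and none in LIGHT Tg.

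**Figure D1:**
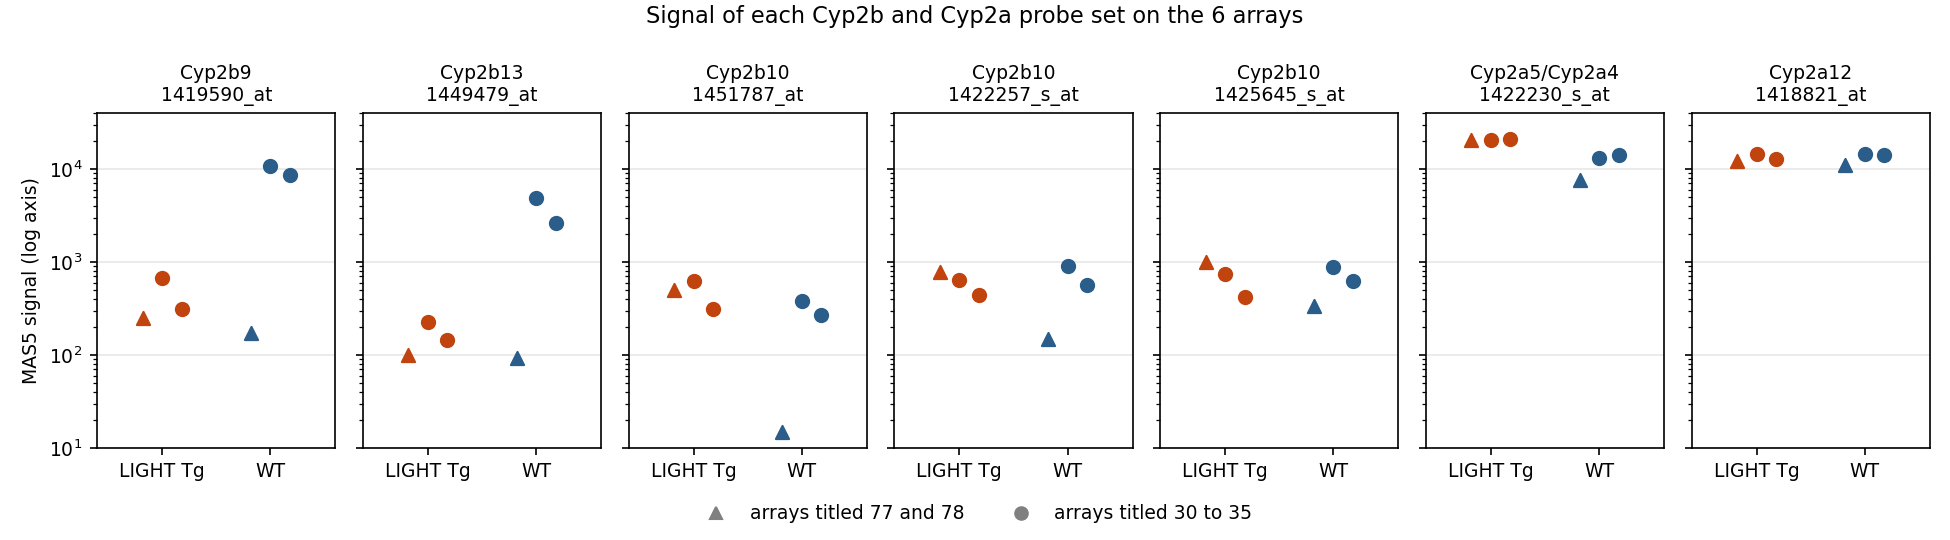
MAS5 signal (log axis) of each Cyp2b and Cyp2a probe set in LIGHT Tg (left in each panel) and WT, 1 point per array, with triangles for the arrays titled 77 and 78 and circles for the arrays titled 30 to 35. WT30 and WT31 stand far above the other 4 arrays for Cyp2b9 and Cyp2b13, all 3 LIGHT Tg points of Cyp2a5 or Cyp2a4 lie above all 3 WT points, and WT78 is the lowest array for each Cyp2b10 probe set.

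Cyp2b10, the CAR target, did not share the low LIGHT Tg signals of its neighbours. At probe set 1451787_at the signal was 496.7 in Tg77, 628.5 in Tg34 and 312.3 in Tg35, against 14.9 in WT78, 382.8 in WT30 and 270.0 in WT31. At 1422257_s_at it was 787.3 in Tg77, 636.8 in Tg34 and 444.2 in Tg35, against 146.8 in WT78, 905.8 in WT30 and 569.2 in WT31. At 1425645_s_at it was 1007 in Tg77, 746.2 in Tg34 and 419.5 in Tg35, against 338.5 in WT78, 883.6 in WT30 and 628.8 in WT31. WT78 had the lowest value at all 3, and the groups overlapped at all 3.

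Without WT78 the Cyp2b10 difference was small, and its direction differed between probe sets. Within the arrays titled 30 to 35 the log2 difference was 0.46 ± 0.358 at 1451787_at, -0.43 ± 0.280 at 1422257_s_at and -0.41 ± 0.310 at 1425645_s_at. Between Tg77 and WT78 all 3 had a higher LIGHT Tg signal, with log2 differences of 5.06, 2.42 and 1.57. Over the 6 arrays the differences were 1.99 ± 1.14, 0.52 ± 0.631 and 0.25 ± 0.435, and leaving out WT78 gave 0.52, -0.24 and -0.13. In Affymetrix naming the suffix _s_at marks probes that can match more than 1 transcript, which holds for 2 of the Cyp2b10 probe sets and for the shared Cyp2a probe set. Pearson r among the 3 probe sets over the 6 arrays lay between 0.775 and 0.938.

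**Figure D2:**
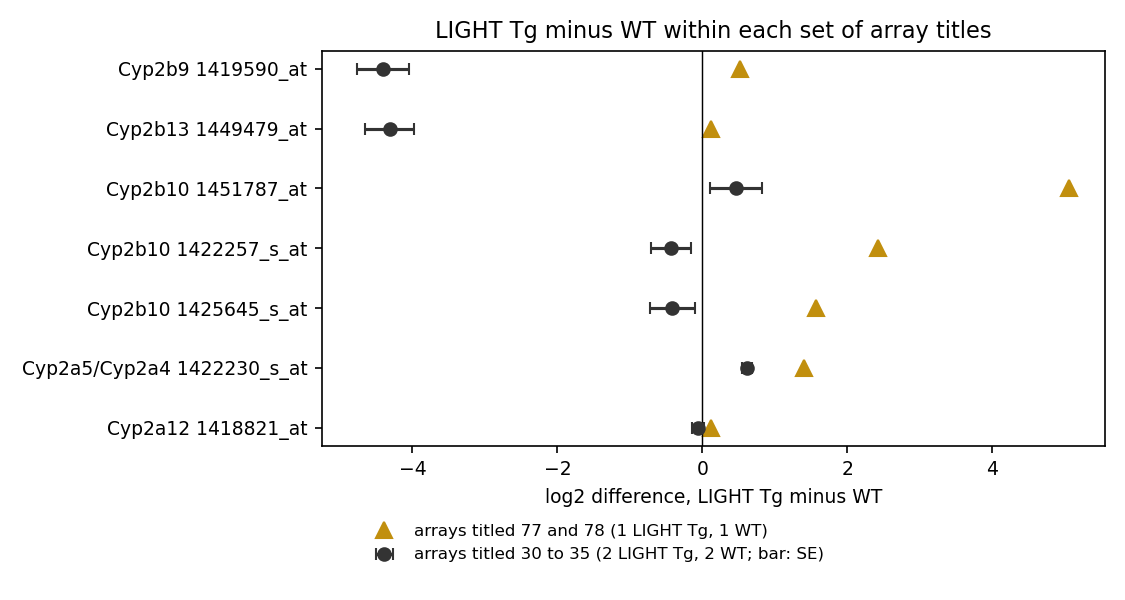
Log2 difference, LIGHT Tg minus WT, of each probe set within the arrays titled 30 to 35 (black circles, mean difference with SE, 2 arrays per genotype) and between Tg77 and WT78 (triangles, 1 array per genotype). Cyp2b9 and Cyp2b13 lie below -4 in the first and close to 0 in the second, while Cyp2b10 is furthest from 0 in the second.

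The probe set shared by Cyp2a5 and Cyp2a4 was higher in LIGHT Tg in both sets. Its signal was 20340 in Tg77, 20580 in Tg34 and 21240 in Tg35, against 7696 in WT78, 13180 in WT30 and 14160 in WT31. The groups did not overlap. The 3 LIGHT Tg livers were close together, with an SD of 0.0322 on the log2 scale against 0.481 in WT, where male-pattern WT78 was the lowest. The log2 difference was 0.88 ± 0.222 over the 6 arrays (1.84-fold), 0.61 ± 0.0717 within the arrays titled 30 to 35 and 1.402 between Tg77 and WT78. The highest signal of any probe set on an array lay between 24359 and 28859, so the LIGHT Tg values are near the top of the scale, and whether the signal was still proportional to RNA there was not tested.

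Cyp2a12 differed little between the genotypes. Its signal was 12050 in Tg77, 14440 in Tg34 and 12860 in Tg35, against 11050 in WT78, 14350 in WT30 and 14000 in WT31. The groups overlapped, with a log2 difference of 0.004 ± 0.136 over the 6 arrays, -0.06 ± 0.0842 within the arrays titled 30 to 35 and 0.12 between Tg77 and WT78. Over the other scalings, filters and moderation settings the 6-array value lay between 0.004 and 0.073.

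All 7 probe sets passed the filter on dim signals, a mean log2 signal of 7.387 or more over the 6 arrays. Of these 2 passed only through the arrays in which they were high. The 1451787_at probe set of Cyp2b10 had means of 8.85 in LIGHT Tg and 6.85 in WT, and of 6.43 in the arrays titled 77 and 78. Cyp2b13 had means of 7.21 in LIGHT Tg and 10.04 in WT, and of 6.58 in the arrays titled 77 and 78. LIGHT Tg lay above WT without overlap for 1 of the 7 over the 6 arrays, where 8.17% of all probe sets did, and lay below it for 0, where 9.19% did. Within the arrays titled 30 to 35 it lay above for 1 and below for 2, where 23.9% and 27.4% of all probe sets did. At 5% FDR in limma 0 of 7 were past the threshold over the 6 arrays (1 at an unadjusted p below 0.05), where 1.17% of all probe sets were called, 0.715% higher and 0.457% lower. With the title set as a block 1 was called higher and 0 lower, where 6.47% were called, 3.26% higher and 3.21% lower. Within the arrays titled 30 to 35 1 was called higher and 2 lower, where 4.25% were called, 2.22% higher and 2.02% lower. The genes were chosen on this contrast, so nothing is read from these counts. In whole liver a lower signal can come from fewer cells with a transcript or from less of it per cell, and the 2 cannot be told apart.

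The genes were not picked on the difference between the title sets, which was tested in limma with genotype in the model. This test is still not free of the choice of genes, since it rests on the same 6 arrays. For Cyp2b9 and Cyp2b13 the high signals of WT30 and WT31 enter both this difference and that between LIGHT Tg and WT. Their calls are therefore given as a description and are no independent support for a difference between the title sets. The sex pattern cannot be told apart from anything else that differs between the title sets. Of the 7 probe sets 3 were lower in the arrays titled 77 and 78 at 5% FDR, Cyp2b9, Cyp2b13 and Cyp2a12, and 4 did not pass. Of all probe sets 27.4% were called, 11.7% higher and 15.7% lower, and without the filter on dim signals 0 of the 7 passed (4 at an unadjusted p below 0.05). Cyp2b9 had a mean log2 signal of 7.68 in the arrays titled 77 and 78 and of 11.04 in the arrays titled 30 to 35, a difference of -3.36 ± 0.962 (adjusted p = 0.0397). For Cyp2b13 the means were 6.58 and 9.65, with a difference of -3.065 ± 0.872. The Cyp2b13 mean in the arrays titled 77 and 78 is below the filter level, and so is its LIGHT Tg mean of 7.21. The gene was tested only through WT30 and WT31, where it is high, and its call is no support for a difference. For Cyp2a12 the means were 13.49 and 13.76, with -0.27 ± 0.0809 (adjusted p = 0.0466). All 3 had both male-pattern arrays below the 4 female-pattern arrays, as did 22.4% of all probe sets.

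The genotypes had different values for it, a difference that was not tested. For Cyp2b9 the log2 value of Tg77 less the mean of Tg34 and Tg35 was -0.897, and that of WT78 less the mean of WT30 and WT31 was -5.82. The Cyp2b13 values were -0.852 in LIGHT Tg and -5.28 in WT. At the 3 Cyp2b10 probe sets Tg77 lay between 0.165 and 0.848 above Tg34 and Tg35, whereas WT78 had values between -4.43 and -1.14 against WT30 and WT31. The shared Cyp2a probe set had -0.04 in LIGHT Tg and -0.83 in WT (difference over both genotypes -0.43 ± 0.160, adjusted p = 0.0826). The calls rest on few arrays. Cyp2b9 lost its call without Tg34 (-3.47, adjusted p = 0.0634), WT78 (-0.90, 0.212), WT30 (-2.94, 0.105) or WT31 (-3.08, 0.0944), and Cyp2b13 without the same arrays. Cyp2a12 kept its call only without Tg35 among the arrays left out in turn.

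**Figure D3:**
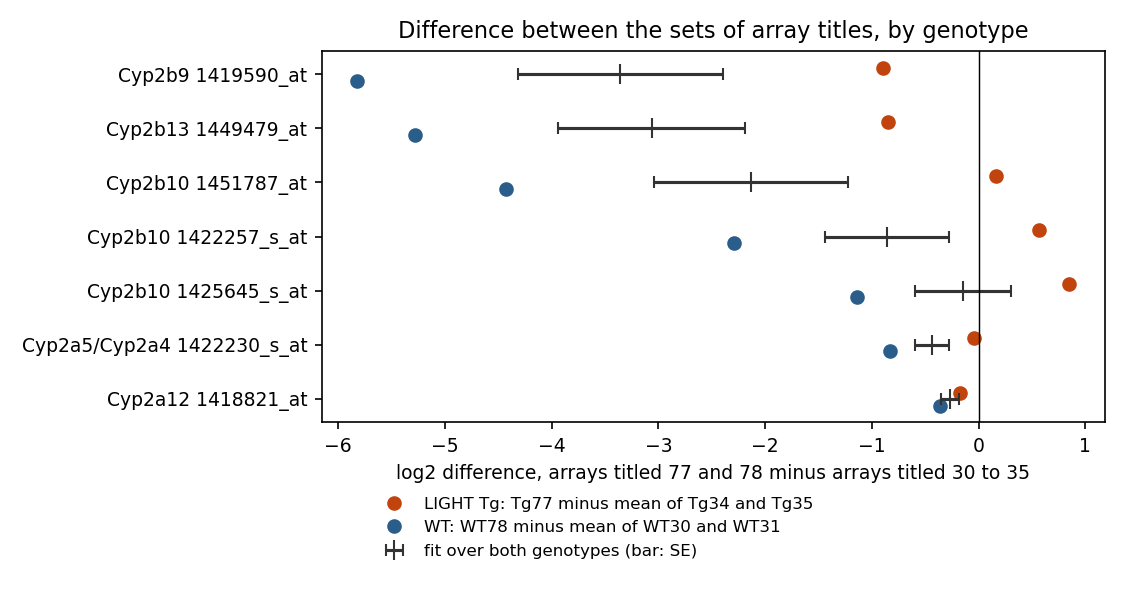
Log2 difference between arrays titled 77 and 78 and arrays titled 30 to 35 for each probe set, within LIGHT Tg (orange), within WT (blue) and in the fit over both genotypes (black, with SE). For Cyp2b9 the WT point is at -5.82 and the LIGHT Tg point at -0.897, and the 3 Cyp2b10 probe sets have LIGHT Tg points above 0 and WT points below it.

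The other P450 genes of the cluster were measured to see whether they shared these differences. Of 7 listed neighbours 4 were matched and 3 passed the filter; Cyp2b19, a skin P450, was below it. None of the 3 passed over the 6 arrays (limma), where 1.36% of genes were called, and 2 had an unadjusted p below 0.05, as had 1375 of all 11563 genes. With the title set as a block 1 rose and 1 fell, where 7.15% of genes were called. Cyp2g1, known from olfactory epithelium, had signals of 1810, 2014 and 1040 in Tg77, Tg34 and Tg35, against 226.7, 393.0 and 617.4 in WT78, WT30 and WT31 (log2 difference 2.04 ± 0.408 over the 6 arrays, adjusted p = 0.0801, and 0.0232 with the block). Cyp2f2, a P450 of periportal hepatocytes and lung, had 8950, 8893 and 6898 in LIGHT Tg, against 19114, 13961 and 14616 in WT (-0.94 ± 0.165, adjusted p = 0.0519, and 0.0047 with the block). Their groups did not overlap, and their directions were opposite.

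The receptors that control Cyp2b transcription did not pass the test. Nr1i3, which encodes CAR, had signals of 1258, 1638 and 890.0 in Tg77, Tg34 and Tg35, against 2075, 2413 and 2282 in WT78, WT30 and WT31, with every LIGHT Tg value below every WT value. Its log2 difference of -0.88 ± 0.235 did not pass (limma adjusted p = 0.181, and 0.063 with the block). Nr1i2, the xenobiotic receptor PXR, had -0.32 ± 0.187 at its brighter probe set (adjusted p = 0.642). Of 20 tested genes of the CAR and PXR receptor and partner list 0 passed over the 6 arrays, where 1.36% of genes were called. An unadjusted p below 0.05 was found for 9 of them and for 1375 of all 11563 genes, and the median log2 difference was -0.30 against -0.01 over all genes. With the block 1 rose and 3 fell: the antioxidant regulator Nfe2l2 had 0.53 ± 0.110, the pioneer factor Foxa1 -0.91 ± 0.186, Cebpb -0.50 ± 0.110 and the PAR bZIP factor Hlf -0.74 ± 0.167 (adjusted p between 0.0337 and 0.0456).

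Of 26 tested CAR target genes 7 had a positive log2 difference, and the median was -0.36. Over the 6 arrays (1.36% of genes called) 1 rose and 2 fell, with the block (7.15%) 2 rose and 8 fell, and within the arrays titled 30 to 35 (4.65%) 2 rose and 6 fell. Aldh1a7, an aldehyde dehydrogenase, rose by 1.02 ± 0.0943 (adjusted p = 0.00563), the export pump Abcc3 fell by 1.72 ± 0.211 (0.0169) and the flavin monooxygenase Fmo5 fell by 2.11 ± 0.348 (0.0426). Gstt1, a glutathione transferase, had -0.78 ± 0.120 with the block (adjusted p = 0.0127). Of 15 tested genes for electron supply and haem synthesis 0 passed over the 6 arrays (3 at an unadjusted p below 0.05), and with the block 2 fell, both enzymes of late haem synthesis: Cpox, with -1.27 ± 0.121 (adjusted p = 0.00268), and Fech, with -0.47 ± 0.0958 (0.0327). Por was not analysed here.

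**Figure D4:**
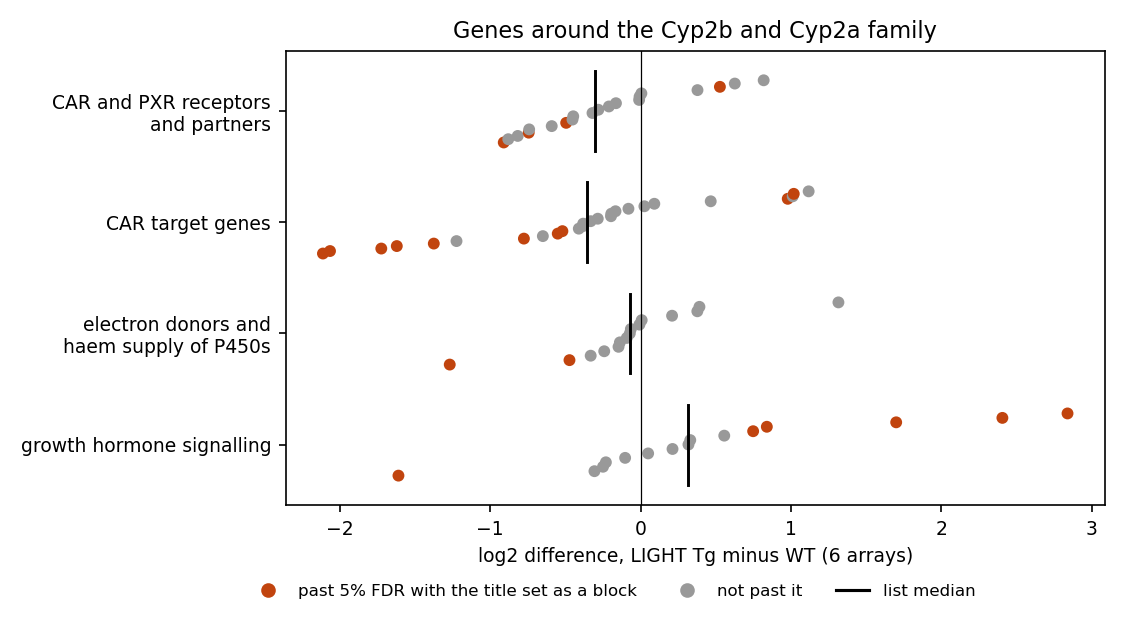
Log2 difference, LIGHT Tg minus WT over the 6 arrays, of each tested gene in 4 lists, 1 point per gene, with orange for genes past 5% FDR with the title set as a block and a black line at the list median. The CAR target list has 10 orange points, 8 of them below 0, and the growth hormone list has 6, of which Bcl6 lies below 0.

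Other genes known to be higher in female liver were set beside Cyp2b9 and Cyp2b13. Of 20 tested female-biased genes 12 had a positive log2 difference within the arrays titled 30 to 35, where Cyp2b9 and Cyp2b13 are low (median 0.54), against 5594 of all 11563 genes. In the 6-array fit 16 were positive (median 1.16), against 5628 of all genes, and between Tg77 and WT78 17 were (median 2.36), against 5665. Without WT78 the 6-array median was 0.43. Over the 6 arrays 0 passed, where 1.36% of genes were called, and 7 had an unadjusted p below 0.05, as had 1375 of all 11563 genes. With the block 7 rose and 1 fell (7.15% of genes called), and within the arrays titled 30 to 35 4 rose and 1 fell (4.65%). Cyp3a16, a P450, had signals of 3031, 7539 and 7341 in Tg77, Tg34 and Tg35, against 6.3, 396.4 and 864.0 in WT78, WT30 and WT31, with 3.67 ± 0.343 within the arrays titled 30 to 35 (adjusted p = 0.00576). The thioesterase Acot4 had 1.11 ± 0.203 with the block (adjusted p = 0.0232), and the peroxisomal oxidase Hao2 had 2.46 ± 0.422. Hao2 and Cyp3a16 had WT means of 7.02 and 7.01 over the 6 arrays, below the filter level, so they were tested only through LIGHT Tg, where they are high, and their places among the 7 are no support for the count. Cyp39a1, which hydroxylates oxysterols, fell, with 149.3, 359.7 and 266.4 in LIGHT Tg against 446.1, 2546 and 1684 in WT (-2.35 ± 0.286 with the block, adjusted p = 0.00589).

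**Figure D5:**
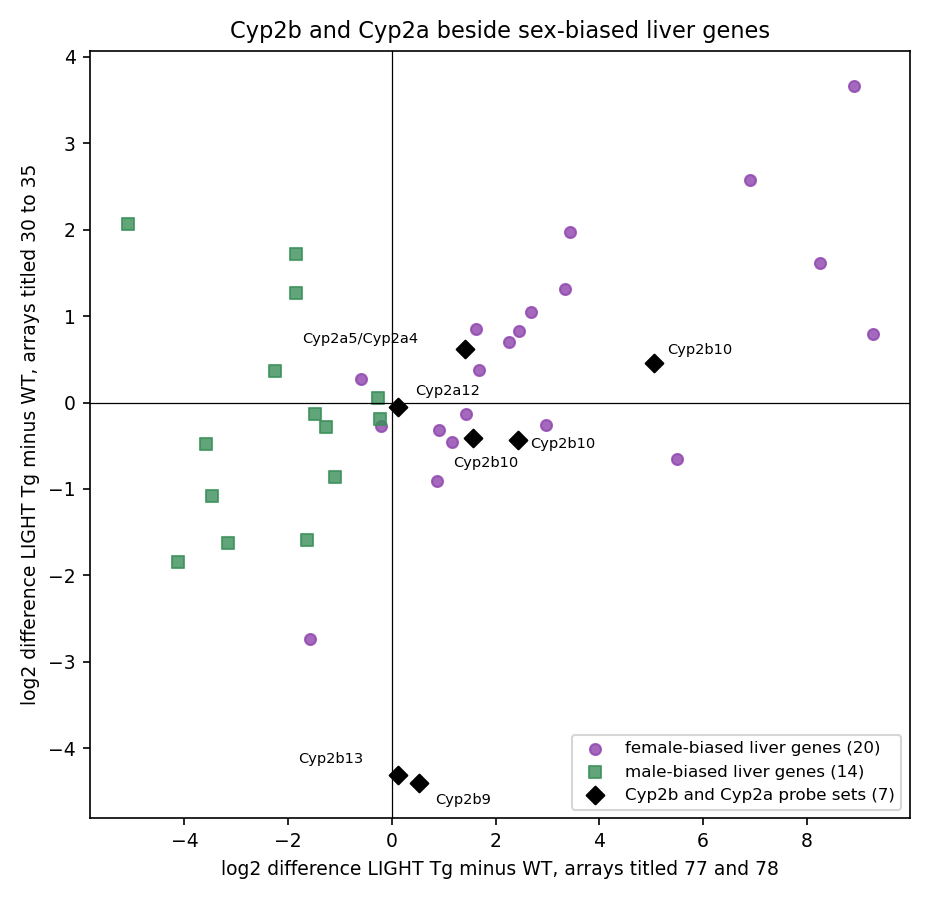
Log2 difference, LIGHT Tg minus WT, between Tg77 and WT78 (x axis) and within the arrays titled 30 to 35 (y axis) for tested female-biased genes (purple circles, 20), male-biased genes (green squares, 14) and the 7 Cyp2b and Cyp2a probe sets (black diamonds). Cyp2b9 and Cyp2b13 lie lowest on the y axis, at -4.40 and -4.31, and the shared Cyp2a probe set lies at 0.61 among female-biased genes that are higher on both axes.

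Of 14 tested male-biased genes 2 had positive log2 differences over the 6 arrays (median -0.60, with -0.24 within the arrays titled 30 to 35 and -1.84 between Tg77 and WT78, and -0.26 over the 6 arrays without WT78). Over the 6 arrays 0 passed (1.36% of genes called), and 5 had an unadjusted p below 0.05, as had 1375 of all 11563 genes. Both with the block (7.15% of genes called) and within the arrays titled 30 to 35 (4.65%) 4 fell. Cyp2d9, a male-predominant P450, had 1843, 445.9 and 417.3 in Tg77, Tg34 and Tg35, against 16470, 1251 and 1405 in WT78, WT30 and WT31 (-2.13 ± 0.292 with the block, adjusted p = 0.00876). The fatty acid elongase Elovl3 had -2.61 ± 0.426 with the block (0.0155). The repressor Bcl6 and Cyp2f2 were the other 2 that fell.

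Growth hormone signalling is known to set the sex pattern of liver P450s. Of 15 tested genes 0 passed over the 6 arrays (1.36% of genes called), and 7 had an unadjusted p below 0.05, as had 1375 of all 11563 genes. With the block 5 rose and 1 fell (7.15% of genes called), with the same counts but partly different genes within the arrays titled 30 to 35 (4.65%). Socs2, a feedback inhibitor induced by STAT5, had 3166, 9234 and 13125 in Tg77, Tg34 and Tg35, against 660.6, 877.3 and 1810 in WT78, WT30 and WT31 (2.84 ± 0.306 with the block, adjusted p = 0.00374). Cish, of the same family, had 1.70 ± 0.163 (0.00268) and the oestrogen receptor Esr1 0.84 ± 0.147 (0.0199). Bcl6, which opposes STAT5, had 187.3, 315.4 and 334.8 in LIGHT Tg against 585.6, 778.7 and 1235 in WT (-1.61 ± 0.192 with the block, adjusted p = 0.00543). These lists were chosen with earlier results of these data known.

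Markers of liver zones and of other cell types were set beside these results. The summed signal of 11 hepatocyte markers was 218970 to 223430 in LIGHT Tg and 221000 to 225580 in WT. Periportal markers, 15 of 15 matched genes past the filter, summed to 108883 to 122396 in LIGHT Tg and 135711 to 152680 in WT, without overlap. Over the 6 arrays 1 rose and 2 fell, where 1.36% of all genes were called, and 4 of the 15 had a positive log2 difference. The list did not move as a whole. The 2 that fell were Hsd17b13, with -2.35 ± 0.174 (limma adjusted p = 0.0022), and Pigr, with -1.40 ± 0.231 (0.0426). Aldh1b1 rose by 1.71 ± 0.205 (0.0162). Among those that did not pass, Ass1 had -1.01, Cyp2f2 -0.94, Asl -0.51, Hal -0.47 and Otc -0.42. Cps1 had -0.07, Arg1 -0.12 and Tat 0.08. Pericentral markers, the zone in which Cyp2b and Cyp2a5 transcripts are known to be richest, summed to 83158 to 101965 in LIGHT Tg and 94642 to 102899 in WT (17 of 17 past the filter). Endothelial markers summed to 12923 to 15904 in LIGHT Tg and 9440 to 10435 in WT (10 of 10 past the filter), Kupffer cell and macrophage markers to 23053 to 37022 in LIGHT Tg and 31951 to 37448 in WT (10 of 10), and bile duct markers to 3103 to 6832 in LIGHT Tg and 1139 to 6427 in WT (2 of 7). In the 6-array fit 2 endothelial markers rose, the clotting factor gene Vwf by 2.39 ± 0.229 (limma adjusted p = 0.00678) and the hyaluronan receptor Lyve1 by 1.24 ± 0.20 (0.0393), and 1 bile duct marker rose, Prom1 by 4.2 ± 0.483 (0.0134). These 3 were named after their values were seen, and Vwf and Prom1 had WT means of 7.35 and 7.06, below the filter level. Epcam, the other tested bile duct marker, had -0.55 ± 1.21. Of the 10 endothelial markers 7 had a positive log2 difference, and Pecam1, Cdh5, Kdr, Eng and Tek lay between -0.11 and 0.19. B and T cell markers (2 of 9 past the filter) and kidney tubule and olfactory markers (2 of 7) summed to 1257 to 1643 and to 1456 to 1774 in LIGHT Tg, against 1353 to 1617 and 1241 to 1275 in WT. Whether differences in single markers reflect cell numbers, and whether they have a part in the Cyp2b and Cyp2a values, was not tested.

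The genes most like Cyp2b9 and Cyp2b13 across the 6 arrays were Ctse, Rnf170, Emp2, Lipg and Slco1b2, with Pearson r between 0.970 and 0.997 with the mean of the 2 genes, among 1405 tested probe sets with 1 symbol and a log2 range of at least 2. Ctse, the protease cathepsin E, had signals of 595.8, 794.9 and 631.3 in Tg77, Tg34 and Tg35, against 511.0, 4189 and 3597 in WT78, WT30 and WT31. Like Cyp2b9, all 5 were high on WT30 and WT31 alone, a pattern fixed by their choice. Emp2, Lipg and Slco1b2 had signals below the filter level of 167.4 on all other arrays, so they passed only through WT30 and WT31. For the shared Cyp2a probe set the most alike genes were Nid1, Dnajb5, Nt5e, Hebp2 and Cyp3a44, with r between 0.990 and 0.995. Nid1, Dnajb5 and Hebp2 had mean log2 signals below the filter level in WT, so they passed only through LIGHT Tg. The nucleotidase Nt5e had 4795, 5003 and 4937 in LIGHT Tg against 223.7, 1045 and 1047 in WT. The 6 points of each correlation share the arrays, genotypes and title sets, so r describes the order of these arrays only.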

How the data were processed

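The authors deposited MAS5 intensity values, 1 linear signal per probe set on 1 array per sample (per the submitters' processing notes); the MAS5 version and its scaling are not stated in those sources, and without detection calls no probe set was called absent. Trimmed mean signals of 490.0 to 505.1 on the 6 arrays show scaling to a common level. Of 45101 probe sets 64 controls were left out, and genes were named from the array's annotation, in which RefSeq gene identifiers changed 0 symbols. From these values, signals below 1 were set to 1, log2 was taken, and the 22519 probe sets with a mean at or above the median (7.387, a signal of 167.4) were fitted in limma 3.58.1 (R 4.3.3) with a variance trend, two-sided, with Benjamini-Hochberg adjustment over all of them and a threshold of 5% FDR. The fits were genotype over 6 arrays, genotype with the title set as a block, genotype within titles 30 to 35, and title set with genotype in the model. Differences on log2 signals are LIGHT Tg minus WT with moderated SE. Title numbers name the arrays and pair none. Lists used 1 probe set per gene, the brightest, so list counts leave out the other probe sets of a gene, which can differ.

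The members and gene lists were chosen with earlier results of these data known. Genes named are every member probe set, up to 4 genes per list by moderated statistic among those past the threshold without or with the block, Nr1i3 and Nr1i2, and the 5 most correlated genes per pattern. Cell type markers, Cyb5r3, Cux2 and Ghr were named after their values were seen. P-values set each difference against the moderated spread that its fit leaves between its arrays, 6 or, within titles 30 to 35, 4. The small number of arrays limits the precision, and an exact permutation test of 3 against 3 cannot go below p = 0.1. Other settings tried were a filter at the 75th percentile or none, adding 37.4 to signals before log2, quantile or median scaling, eBayes without trend or robust, the mean of all probe sets of a gene (lists), no genotype term (title sets), the block, and each array left out. The fits were tested on simulated data with independent normal noise. For the genotype fits these data held no title set difference, so they cannot show how the 6-array fit behaves with one. Upstream windows came from RefSeq (GRCm38.p6) and were aligned with Biopython 1.88; figures used matplotlib 3.10.9.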

Additional observations from a re-analysis of the deposited data

Results flagged for a closer look

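For Cyp2b9 and Cyp2b13 the LIGHT Tg minus WT difference was unlike in the 2 title sets, far below 0 in the arrays titled 30 to 35 and close to 0 between Tg77 and WT78. Tg77 and WT78 had 246.4 and 171.8 for Cyp2b9, and 99.6 and 92.1 for Cyp2b13, near or below the filter level of 167.4. No reversal of direction is read from these single arrays. The log2 difference in the first set less that in the second was -4.92 for Cyp2b9 (-4.40 against 0.52) and -4.43 for Cyp2b13 (-4.31 against 0.11). The likeness genes Ctse (-2.68, from -2.45 against 0.22) and Slco1b2 (-1.85, from -1.36 against 0.49) also had unlike differences. Slco1b2 had signals of 132.0 in Tg77 and 93.8 in WT78, below the filter level. These differences between sets were not tested, since the genes were chosen on this contrast or for their likeness to those that were, and the second set has 1 array per genotype.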

How the results depend on the processing

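Of all probe sets, 264 were called between LIGHT Tg and WT over the 6 arrays, 148 by eBayes without trend, 1457 with the title set as a block and between 43 and 306 with 1 array left out (80 without Tg34, 43 without Tg35, 68 without WT30 and 63 without WT31). Within the arrays titled 30 to 35 the count was 956, with 458 without the filter, 418 without trend and 43 to 978 with 1 array left out (43 without WT30, 109 without WT31). Between the title sets it was 6163, with 3465 under the stricter filter, 3523 without the genotype term and 2698 to 4632 with 1 array left out (3595 without Tg77, 2698 without WT78, 3790 without WT30). The number of Cyp2b and Cyp2a probe sets past 5% FDR between title sets was 3, but 0 without the filter (4 at an unadjusted p below 0.05), without trend (2) or without the genotype term (1), 1 with robust eBayes, and between 0 and 5 with 1 array left out (5 without Tg77, 0 without WT78). The causes were not tested. The title set difference of Cyp2b10 changed sign with single arrays left out, lying between -2.29 and 0.566 at 1422257_s_at, between -1.139 and 0.848 at 1425645_s_at and between -4.431 and 0.165 at 1451787_at. The LIGHT Tg minus WT differences of the 7 probe sets moved by less than the spread between arrays under every alternative run, a spread that is wide. List medians kept their sign but moved by over 1.5 times: female-biased to 0.427 without WT78, male-biased to -0.263 without WT78, -1.121 without WT30 and -0.943 without the filter, receptors to -0.176 without Tg35, growth hormone to 0.144 without WT30 and 0.556 with probe sets averaged, neighbours to 0.113 without Tg77, 0.170 without WT31, 0.394 without WT30 and 0.546 under the stricter filter, and electron supply to -0.120 without Tg77 or Tg34, -0.134 without WT78 and -0.046 without WT31. Within the arrays titled 30 to 35 neighbours had 0.062 and electron supply -0.147. The median of CAR targets moved by less. Over the 6 arrays Cyp2b9 had -4.70 without WT78 and -1.71 without WT30, and Cyp2b13 had -4.60 and -1.74. No paired analysis was possible because the labels give the genotypes no shared replicate numbers. Only 2 or 3 arrays per genotype and the lack of detection calls limit all values.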
